A study of Mus musculus with 21 samples.

Results

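Platelet-derived growth factors (PDGFs) and their receptors were followed in the kidneys of mice with adenine-induced chronic kidney disease. The family was taken by symbol from the gene names deposited with the data and linked by Ensembl identifier to the counts, which gave 7 of 7 genes, Pdgfa, Pdgfb, Pdgfc, Pdgfd, Pdgfra, Pdgfrb and Pdgfrl, of 21657 genes listed in all. The samples were kidney RNA of 17 female apoE KO mice on the C57BL/6J background, 18 weeks old, which had been fed from 4 weeks of age for 14 weeks. There were 5 mice on chow (Con), 6 mice on chow with 0.2% adenine (Ade) and 6 mice on chow with 0.2% adenine and 0.06% iodomethylcholine (Ade + IMC). Adenine in excess forms crystals in the tubules and injures the kidney, and iodomethylcholine (IMC) blocks the gut microbial enzyme that makes trimethylamine, the precursor of trimethylamine N-oxide. All 3 groups were apoE KO by their labels, a genotype that makes mice hypercholesterolemic, and no wild-type kidney stood beside them. Apoe still had 47 to 110 reads in Con, 89 to 214 in Ade and 86 to 171 in Ade + IMC, and counts per gene do not show which part of the transcript these reads cover. The 4 mice given IMC without adenine were not analysed here. Each library was 1 mouse, named below by its mouse number.

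PDGFs are secreted dimers that bind class III receptor tyrosine kinases and drive the growth and migration of mesenchymal cells. PDGF-A and PDGF-B are cut to their active form inside the cell, whereas PDGF-C and PDGF-D are secreted as latent proteins that proteases activate outside it. In the kidney, endothelial PDGF-B recruits mesangial cells and pericytes that carry the beta receptor, and interstitial fibroblasts carry both receptors. Signalling through either receptor is known to promote renal fibrosis.

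Total gene counts were 7716126 to 11680809 in Con, 5444833 to 7673215 in Ade and 5728589 to 8305968 in Ade + IMC. Values per mouse are CPM, the reads of a gene relative to the library total, with totals scaled by the trimmed mean of M values. Genes of the kidney tubule were abundant as the tissue label requires, with a mean of 4767 CPM in Con for Umod, the thick limb protein uromodulin. Havcr1, which encodes the injury marker KIM-1, had 1 to 7 reads in Con, 549 to 2104 in Ade and 192 to 1580 in Ade + IMC. The first digit of the mouse number (2, 3 or 4) has no stated meaning and occurs in every group. Differences within each digit are given beside the tests of Ade against Con, and for some genes beside those of Ade + IMC against Ade.

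With adenine, 5 of the 7 genes rose and 2 did not pass the test. The ligand genes Pdgfa and Pdgfb rose 2.43-fold and 2.78-fold, the receptor genes Pdgfra and Pdgfrb rose 2.35-fold and 2.11-fold, and Pdgfrl rose 10.2-fold. The ligand genes Pdgfc and Pdgfd gave 0.979-fold and 1.06-fold. Genes were called by edgeR's quasi-likelihood test at an adjusted p below 0.1, by which 67.3% of 14612 genes differed, 35.1% being higher in Ade and 32.2% lower. The median log2 difference was 1.23 over the 7 genes and 0.02 over all genes tested. How many of all genes had groups that did not overlap was not counted. The separations given below are therefore not read as particular to this family. In bulk tissue, a change in the number of cells of a type and a change in the RNA each cell holds cannot be told apart.

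**Figure D1:**
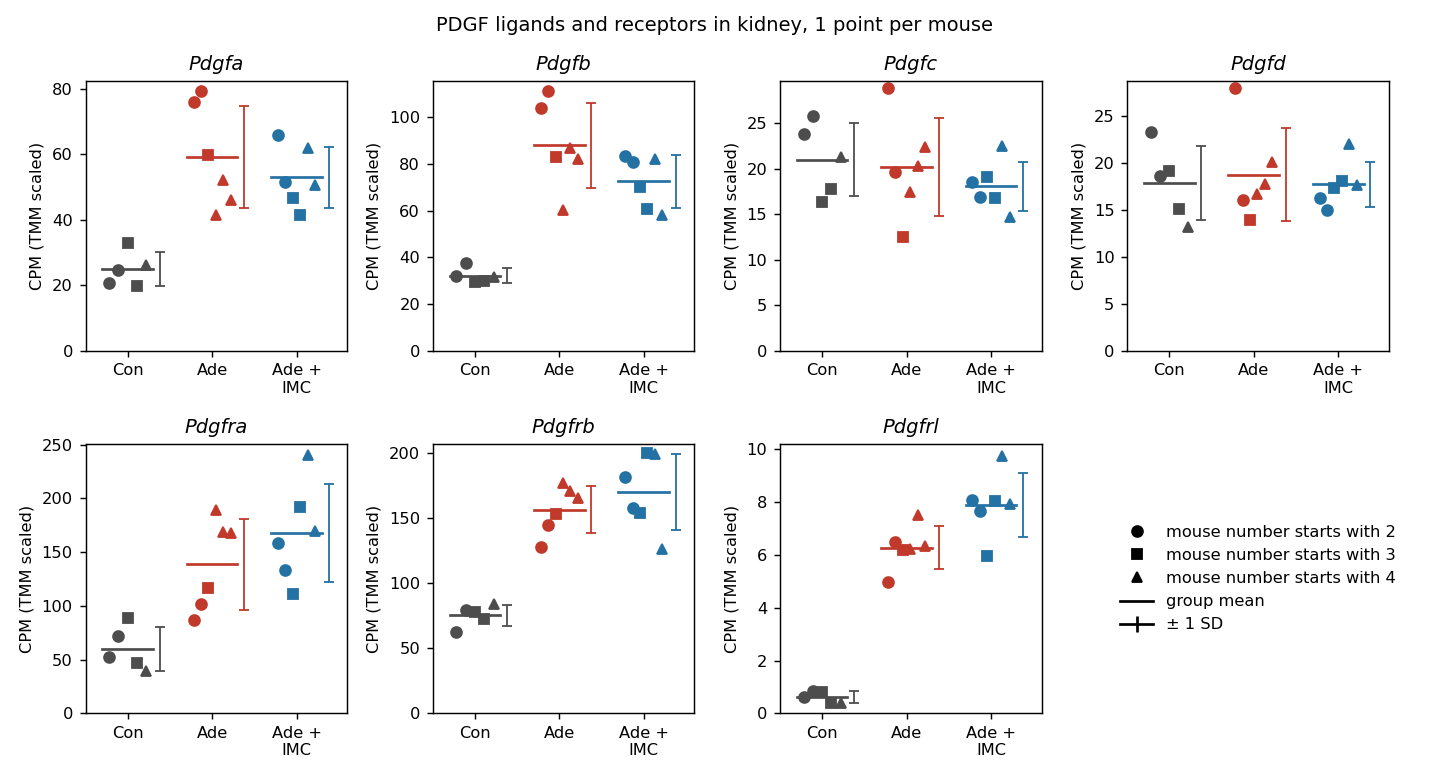
CPM of each PDGF gene (vertical axes, from 0) in Con, Ade and Ade + IMC kidneys, with 1 point per mouse, symbols for the first digit of the mouse number, a line at the group mean and a bar of 1 SD. Pdgfb, Pdgfa, Pdgfrb and Pdgfrl in all 6 Ade and all 6 Ade + IMC mice lay above every Con mouse, whereas the ranges of Pdgfc and Pdgfd overlapped between all 3 groups. The share of all genes that separated in this way was not counted.

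Pdgfa encodes the A chain, which signals through the alpha receptor. Its level in the Con mice was 20.6, 24.7, 32.8, 19.9 and 26.3 CPM. In Ade the lowest mouse had 41.4 CPM, the median was 56.1 CPM and the highest mouse had 79.4 CPM. Every Ade mouse was above every Con mouse, and the mice numbered 207 and 208 were the highest. On the log2 scale Ade was higher by 1.28 ± 0.19 (SE), with an adjusted p of 6.42e-05 by edgeR. Within the mice whose number starts with 2, 3 and 4, the difference in mean log2 CPM was 1.77, 1.22 and 0.82.

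In the GENCODE M21 annotation of GRCm38, Pdgfa lies on the minus strand of chromosome 5, from 138976014 to 138997370, with 3119 exonic bases. On the opposite strand 813 of these bases also belong to exons of 6330403L08Rik, which had 33 to 75 reads in Con, 50 to 99 in Ade and 53 to 113 in Ade + IMC. The use of strand in counting is not given in the sources used here, so reads of both genes in that stretch could not be told apart. Pdgfa had 153 to 242 reads in Con and 306 to 699 in Ade.

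RefSeq (GRCm38.p6) lists upstream windows for 4 of the 7 genes, namely Pdgfa at a pair of start sites, Pdgfc, Pdgfd and Pdgfra. The 120 bases before each start are shown because these genes include ligands that rose and ligands that did not. The 250 bases before each start were searched on both strands for the GC box GGGCGG, the CCAAT box CCAAT, the TATA box TATAAA, the AP-1 site TGANTCA, the EGR1 site GCGTGGGCG or GCGGGGGCG, and the serum response element. Capitals mark any match. For Pdgfa both windows are on the minus strand:
Pdgfa, chr5:138994282-138994401: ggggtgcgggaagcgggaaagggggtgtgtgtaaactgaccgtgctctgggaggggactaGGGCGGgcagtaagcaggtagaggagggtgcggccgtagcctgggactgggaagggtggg
Pdgfa, chr5:138994945-138995064: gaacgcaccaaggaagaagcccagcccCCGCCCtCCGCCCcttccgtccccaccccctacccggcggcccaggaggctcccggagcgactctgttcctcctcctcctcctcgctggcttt

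A GC box occurred once before the first of these starts and at 2 positions before the second, where it is read on the opposite strand as CCGCCC. It occurs in 32.7% of all 32851 windows of the same length, and the CCAAT box, the AP-1 site and the EGR1 site, absent here, occur in 33.8%, 6.75% and 3.06%. No match overlapped another. The windows before the Pdgfa starts were GC-rich, at 66.4% and 72.4%, against a median of 52.4% over all windows.

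Pdgfb encodes the B chain, the ligand of the beta receptor that also binds the alpha receptor. Con mice held 32.2, 37.7, 29.5, 30.0 and 31.5 CPM. The Ade values ran from 60.2 through a median of 84.9 to 111 CPM. The groups did not overlap, and mice 207 and 208 again had the highest values while mouse 407 had the lowest. It was higher in Ade by 1.48 ± 0.14 on the log2 scale (SE; adjusted p = 1.62e-06, edgeR), and within the digits 2, 3 and 4 it was 1.62, 1.47 and 1.25. Pdgfb is on the minus strand of chromosome 15, from 79995874 to 80014977, and shares no exonic base with another gene.

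Pdgfc encodes a latent ligand of the alpha receptor. Its Con values were 23.8, 25.8, 16.4, 17.8 and 21.3 CPM. Its Ade values had a lowest of 12.5, a median of 19.999 and a highest of 28.9 CPM, and the groups overlapped. Mouse 207 lay above the Con range and mouse 308 below it. The log2 difference was -0.03 with a 95% interval from -0.42 to 0.36 (adjusted p = 0.896, edgeR), so changes of up to 1.28-fold upward were within the interval. Within the digits 2, 3 and 4 it was -0.06, -0.44 and -0.09. Pdgfc lies on the plus strand of chromosome 3, from 81036416 to 81214040, and shares 147 exonic bases with Gm16000 on the opposite strand. Its upstream bases, on the plus strand, hold a serum response element that ends 8 bases before the start, a motif present in 1.47% of all windows:
Pdgfc, chr3:81036296-81036415: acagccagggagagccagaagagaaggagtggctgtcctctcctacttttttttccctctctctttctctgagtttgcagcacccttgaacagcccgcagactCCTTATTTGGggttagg

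Pdgfd encodes a latent ligand of the beta receptor. Con mice had 23.3, 18.6, 19.1, 15.1 and 13.2 CPM. The lowest, median and highest Ade values were 13.9, 17.2 and 28.0 CPM. Mouse 207 was the single Ade mouse above the Con range, and it was also the highest Ade mouse for Pdgfc. The log2 difference was 0.09 with an interval from -0.30 to 0.48 (adjusted p = 0.685, edgeR), and within the digits 2, 3 and 4 it was 0.02, -0.29 and 0.45. The gene spans 6168584 to 6378850 on the plus strand of chromosome 9. Its window held 1 TATA box, 155 to 160 bases before the start and so outside the bases shown; 12.4% of all windows hold one:
Pdgfd, chr9:6168366-6168485: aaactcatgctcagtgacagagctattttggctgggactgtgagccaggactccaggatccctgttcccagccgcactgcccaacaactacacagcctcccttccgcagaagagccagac

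Pdgfra encodes the alpha receptor, a general marker of interstitial fibroblasts. In Con its level was 52.6, 72.3, 89.1, 46.5 and 39.1 CPM. In Ade the lowest value was 86.7, the median 142 and the highest 189 CPM. Of the 6 Ade mice 5 were above every Con mouse, and mouse 207 fell below Con mouse 301. The log2 difference was 1.23 ± 0.24 (SE; adjusted p = 0.000646, edgeR), and among the 5 genes that rose it differed most between digits, with 0.60, 0.86 and 2.16 within the digits 2, 3 and 4. Digit 4 holds a single Con mouse, 403, which had the lowest Pdgfra of all.

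In Ade, mice 207 and 208 had the lowest Pdgfra and the highest Pdgfa and Pdgfb, and mouse 407 had the highest Pdgfra and the lowest Pdgfa and Pdgfb. Pdgfra covers 75152292 to 75198215 on the plus strand of chromosome 5, with 10024 exonic bases. Exons of genes on the opposite strand share 622 of these bases, and Mir7025 on the same strand shares 30. None of the 6 motifs was in its upstream window:
Pdgfra, chr5:75152131-75152250: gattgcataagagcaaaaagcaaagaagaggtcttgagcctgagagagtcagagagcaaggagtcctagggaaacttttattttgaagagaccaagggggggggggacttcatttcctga

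Pdgfrb encodes the beta receptor of pericytes, mesangial cells and fibroblasts. Con mice had 62.9, 79.4, 78.3, 72.6 and 83.9 CPM, and Ade mice ran from 128 through a median of 160 to 177 CPM. All Ade values were above all Con values. It rose by 1.08 ± 0.10 on the log2 scale (SE; adjusted p = 1.49e-06, edgeR). It was the most even of the rises across digits, at 0.94, 1.02 and 1.03 within the digits 2, 3 and 4. The coefficient of variation in Ade was 11.7% for Pdgfrb and 30.4% for Pdgfra.

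Pdgfrl encodes a receptor-like protein related to the extracellular part of the PDGF receptors and without a kinase. The Con mice had 6, 6, 6, 3 and 3 reads, or 0.39 to 0.87 CPM. The Ade mice had 37 to 60 reads, with a lowest level of 4.96, a median of 6.27 and a highest of 7.49 CPM. The groups did not overlap. The log2 difference was 3.36 ± 0.23 (SE; adjusted p = 8.82e-08, edgeR), with a 95% interval of the fold from 7.25 to 14.5. Within the digits 2, 3 and 4 the difference in mean log2 CPM was 2.58, 2.94 and 3.40. Pooled over mice there were 24 reads in Con and 288 in Ade, a ratio of rates of 10.4 with a 95% counting interval from 6.83 to 16.4 (exact binomial, which covers counting error only). Pdgfrl lies on the plus strand of chromosome 8, from 40926212 to 40990785.

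Genes can be compared with each other only per length, so CPM was divided by exonic kilobases. On this scale Pdgfrb was the most abundant member in Con, at 13.8 ± 1.48 CPM per kb (SD, n = 5). Below it, without overlap, came Pdgfa (7.96 ± 1.66), Pdgfb (7.73 ± 0.784), Pdgfra (5.98 ± 2.04), Pdgfd (5.66 ± 1.24) and Pdgfc (4.13 ± 0.780). From Pdgfa to Pdgfc, the range of each gene overlapped that of the next. Pdgfrl was at 0.196 ± 0.0720 CPM per kb, below every value of Pdgfc.

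In Ade the order was Pdgfrb (28.6 ± 3.34 CPM per kb, SD, n = 6), Pdgfb (21.1 ± 4.35), Pdgfa (19.0 ± 5.01), Pdgfra (13.8 ± 4.20), Pdgfd (5.94 ± 1.58), Pdgfc (3.97 ± 1.06) and Pdgfrl (2.01 ± 0.258). This order is that of the group means. Pdgfrb was above Pdgfb in 4 of 6 Ade mice, and their ranges overlapped. Pdgfb was above Pdgfa in 6 of 6 Ade mice and in 3 of 6 Ade + IMC mice. Pdgfrl stayed the lowest of the group means, and in Ade + IMC its range reached that of Pdgfc.

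**Figure D2:**
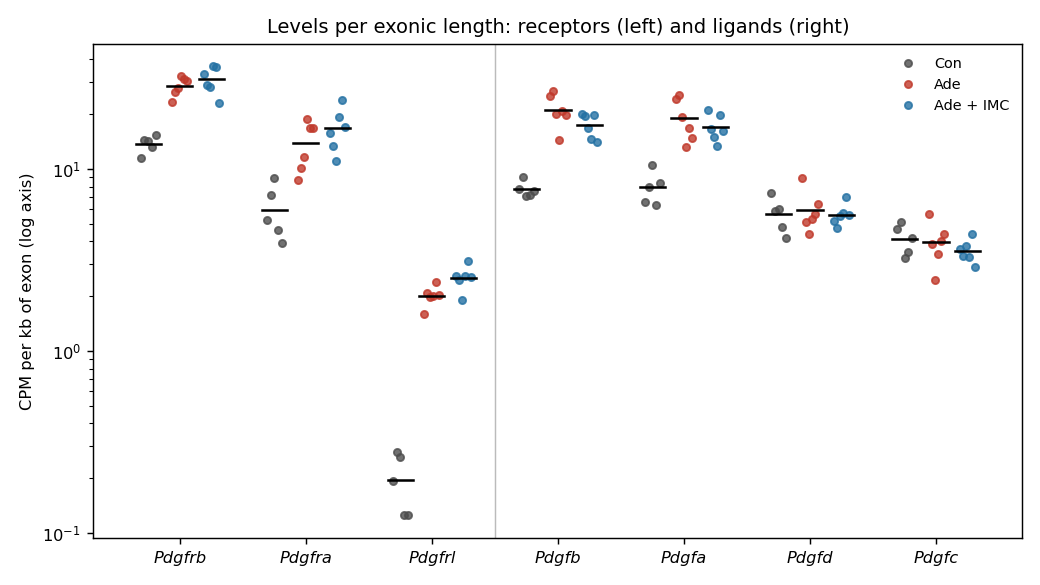
CPM per kb of exon on a log axis for the receptor genes (left) and ligand genes (right), with 1 point per mouse, colours for Con, Ade and Ade + IMC, and a line at each group mean. Pdgfrb had the highest mean in every group, from 13.8 in Con to 28.6 in Ade, and Pdgfrl had the lowest, from 0.196 in Con to 2.01 in Ade.

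Both receptors rose, and their balance was examined as the log2 ratio of Pdgfra to Pdgfrb reads with 0.5 added to each. It was -0.39 ± 0.50 in Con (SD, n = 5), -0.23 ± 0.29 in Ade (n = 6) and -0.04 ± 0.34 in Ade + IMC (n = 6). The difference between Ade and Con was 0.16 (p = 0.530, two-sided exact permutation test). That between Ade + IMC and Ade was 0.18 (p = 0.331, exact permutation test). The smallest p this test can give is 0.00216 for either comparison. Without Con mouse 403 the difference between Ade and Con was -0.02, so its sign rested on that mouse.

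The comparison of Ade + IMC with Ade asks whether IMC altered the family in mice on adenine. None of the 7 PDGF genes was called: 0 of 7 passed limma's test on log2(normalized count + 1) at an adjusted p below 0.1, and 0% of all 14696 genes tested were called. At an unadjusted p below 0.05 the test found 988 genes, edgeR on the recovered reads called 0, and DESeq2 called 37 (0.246%). When mice were blocked by that first digit, 133 genes were called (0.905%), again with 0 of the 7. In that limma analysis Pdgfb, Pdgfra and Pdgfrl had unadjusted p values of 0.0255, 0.0270 and 0.0256 and adjusted p values of 0.282, 0.290 and 0.282. The median log2 difference over the 7 genes was -0.07, against 0.01 over all genes tested. The study itself, with DESeq2 at the same threshold, reported many more genes lower and higher in Ade + IMC than in Ade. By qPCR it also reported lower Col1a1 and Col3a1 with IMC. Why its count of genes differs from those given here was not tested.

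Among the ligands, Pdgfb was 0.28 lower in Ade + IMC on the log2(normalized count + 1) scale, with a 95% interval from -0.59 to 0.03 (adjusted p = 0.749, limma). Its levels in Ade + IMC ran from 58.2 through a median of 75.4 to 83.5 CPM, and all 6 mice were below the Ade median. Within the digits 2, 3 and 4 the difference in mean log2 CPM was -0.39, -0.35 and -0.13. The differences of Pdgfa, Pdgfc and Pdgfd were -0.15 (interval -0.51 to 0.21), -0.14 (-0.50 to 0.22) and -0.07 (-0.39 to 0.26), and none of these 3 genes kept 1 sign within all digits. The Pdgfa levels were 41.5 CPM at the lowest, 51.0 CPM at the median and 65.9 CPM at the highest.

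Among the receptors, Pdgfrl was 0.31 higher with an interval from 0.02 to 0.60, an unadjusted p of 0.0389 and an adjusted p of 0.717 (limma). Its levels in Ade + IMC were 5.94, 7.98 and 9.73 CPM at the lowest, median and highest, and 5 of 6 mice were above every Ade mouse. Within the digits 2, 3 and 4 the difference was 0.45, 0.16 and 0.39. Pdgfra was 0.28 higher, with an interval from -0.18 to 0.74, and reached from 111 through 164 to 241 CPM, with 0.63, 0.32 and 0.21 within the digits. Pdgfrb was 0.09 higher, with an interval from -0.17 to 0.36, and its range of 126 to 200 CPM enclosed the whole Ade range, with 0.31, 0.19 and -0.11 within the digits. The 7 intervals lay between -0.59 and 0.74 on this scale.

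Adipocyte markers varied widely between libraries. Of 6 adipocyte markers, Lep was not listed and the other 5 summed to 0.52 to 13.4 CPM in Con, 0.541 to 150 CPM in Ade and 0.415 to 588 CPM in Ade + IMC. Mice 207 (Ade) and 211, 212 and 410 (Ade + IMC) exceeded 80 CPM. Without these 4 mice, an analysis chosen after the data were seen, the difference between Ade + IMC and Ade was 0.14 for Pdgfrl, 0.08 for Pdgfra, -0.05 for Pdgfrb and -0.42 for Pdgfb, and 0 of 7 genes were called. The rises from Con were 3.42 for Pdgfrl and 1.34 for Pdgfra in Ade without mouse 207. Cfd, the adipsin gene and the single marker of this list tested against Con, rose 9.32-fold in Ade (adjusted p = 0.0387, edgeR). This fold leaned on 1 library, as the 5 markers summed to 150 CPM in mouse 207 and 0.541 to 27.3 CPM in the other Ade mice. The mean level of Cidec, a lipid droplet gene, was 0.787 CPM in Con, 4.08 CPM in Ade and 22.2 CPM in Ade + IMC. For Pdgfra and Pdgfrl, mouse 207 was the lowest in Ade and mouse 410 the highest in Ade + IMC. Leaving them out therefore lowers these differences whatever their adipocyte markers. Without mouse 207 alone the difference of Pdgfra between Ade + IMC and Ade was 0.154, and without mouse 410 alone 0.169. The part of adipocyte markers in the differences of the PDGF genes was not tested.

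Other cell type markers were set beside this comparison too, and none was called by limma. The 10 endothelial markers each had a positive difference between Ade + IMC and Ade, from 0.24 to 0.52 with a median of 0.31, and their summed level was 568 to 1140 CPM in Ade and 786 to 1430 CPM in Ade + IMC. Relative to the median log2 CPM of these markers in the same mouse, the difference was 0.03 for Pdgfrl, 0.00 for Pdgfra, -0.18 for Pdgfrb and -0.56 for Pdgfb. The median difference was 0.04 for the markers of pericytes, mesangial cells and smooth muscle, -0.17 for fibroblast markers, -0.27 for macrophage markers and -0.08 for platelet markers. It was further from 0 for markers of injured tubule (-0.94) and podocytes (0.49), and was 0.37 for thick limb and collecting duct and 0.36 for proximal tubule. Relative to fibroblast markers, Pdgfrl was 0.61 higher and Pdgfra 0.59 higher in Ade + IMC. The part of these cell types in the differences was not tested.

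**Figure D3:**
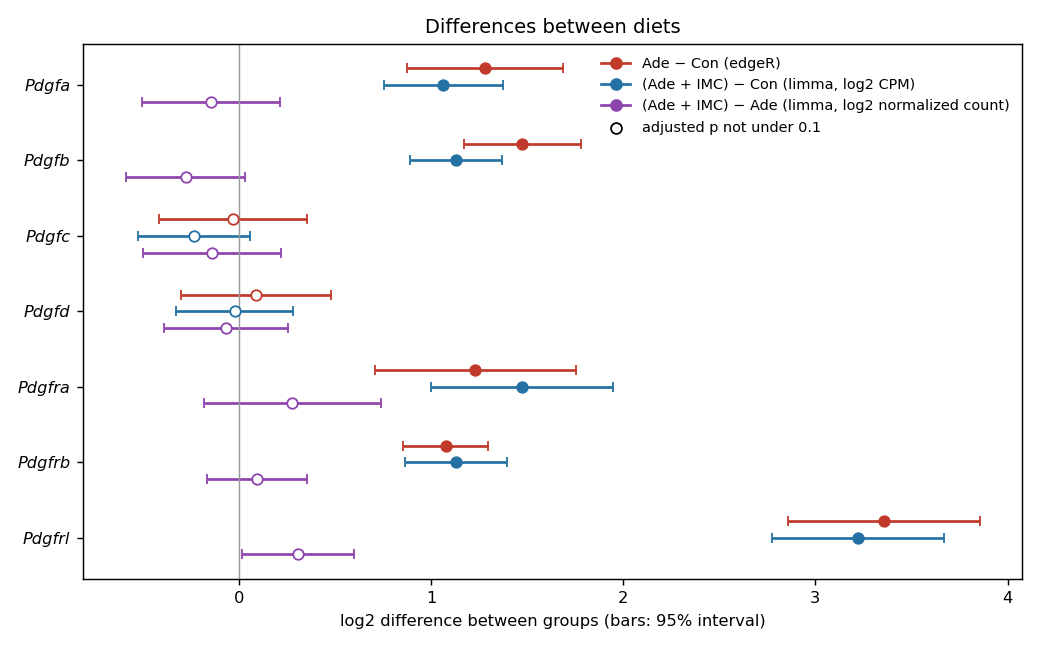
Log2 differences for each PDGF gene with 95% intervals, for Ade against Con (edgeR), Ade + IMC against Con (limma on log2 CPM) and Ade + IMC against Ade (limma on log2 normalized counts), with open points where the adjusted p was not under 0.1. The same 5 genes are filled in both comparisons with Con, and all 7 points of Ade + IMC against Ade are open.

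Against Con, the Ade + IMC kidneys had 5 of 7 genes higher and 0 lower by limma on log2 CPM, where 63.4% of 14578 genes were called, 30.9% being higher and 32.5% lower. This comparison shares the Con mice with the one above, so both are given side by side and not as independent results. Pdgfa was 1.06 ± 0.14 higher (SE; adjusted p = 3.29e-05), Pdgfb 1.13 ± 0.11 (2.46e-06), Pdgfra 1.47 ± 0.22 (7.85e-05) and Pdgfrb 1.13 ± 0.12 (5.88e-06) on this log2 scale. For all 4 genes every Ade + IMC mouse was above every Con mouse, and the share of all genes that did so was not counted.

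Pdgfrl was 3.22 ± 0.21 higher in Ade + IMC than in Con (adjusted p = 6.83e-08, limma). The prior count of 2 pulls this value down where reads are few, and edgeR on the recovered reads gave 3.64 ± 0.24. Pdgfc was -0.24 (interval -0.53 to 0.06, adjusted p = 0.156) and Pdgfd -0.02 (-0.33 to 0.28, adjusted p = 0.904), both by limma. Pdgfc passed the threshold without Con mouse 301 (adjusted p = 0.0611) and without Ade + IMC mouse 410 (adjusted p = 0.0873).

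Latent PDGF-C and PDGF-D need proteases, PDGF-A and PDGF-B need convertases, and matrix proteins and membrane co-receptors bind the ligands or receptors. Of 10 such genes, 5 rose and 5 fell with adenine by edgeR, with a median log2 difference of 0.00. Among all genes tested, 35.1% were higher in Ade and 32.2% lower. Plat, the tissue plasminogen activator that activates PDGF-C, rose 2.25-fold (adjusted p = 1.64e-05). Plau, the urokinase that activates PDGF-D, fell to 0.626-fold (adjusted p = 0.00449). St14, a further protease gene of this list, rose 1.29-fold (adjusted p = 0.0253, edgeR), so the listed proteases did not share 1 direction. The convertase genes Pcsk5 and Furin fell to 0.538-fold and 0.676-fold. Sparc, a matrix protein that binds PDGF-B, rose 4.56-fold from a mean of 180 CPM in Con to 806 CPM in Ade, and Lrp1, a co-receptor, rose 2.90-fold. None of the 10 was called between Ade + IMC and Ade.

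Downstream of the receptors, 13 of 21 signalling genes (adaptors, enzymes such as kinases and phosphatases, ubiquitin ligases and transcription factors) rose, 3 fell and 5 did not pass the test (edgeR, median 0.34). The shares over all genes tested were 35.1% higher and 32.2% lower. Stat3, a transcription factor, rose 2.06-fold (adjusted p = 2.25e-06), and Ptpn1, a phosphatase that acts on receptor tyrosine kinases, rose 2.02-fold (adjusted p = 6.69e-07). Pik3ca, a catalytic subunit of PI3 kinase, fell to 0.719-fold and the adaptor Crk to 0.744-fold. The largest difference in this list was that of Stat3, at 1.04 on the log2 scale.

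Of 14 immediate early genes, which growth factors and other stimuli switch on within minutes, 13 rose and 0 fell (median 1.79). Over all genes tested, 35.1% were higher and 32.2% lower. The transcription factor gene Egr2 went from a mean of 0.636 to 15.02 CPM, and Atf3, a stress-responsive factor, from 2.17 to 18.6 CPM. The summed level of the list was 177 to 252 CPM in Con, 351 to 649 CPM in Ade and 383 to 502 CPM in Ade + IMC. Within Ade it was highest in mice 207 and 208, at 643 and 649 CPM, and lowest in mouse 407, at 351 CPM, the mice with the highest and lowest Pdgfa and Pdgfb. The same mice also differed in other lists. Injured tubule markers summed to 3370 and 3570 CPM in mice 207 and 208 and 1310 CPM in mouse 407, podocyte markers to 288, 524 and 992 CPM, and proximal tubule markers to 2040, 2070 and 6670 CPM. Many stimuli raise these genes, and their relation to PDGF was not tested.

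Relatives of the family were set beside it, in a comparison where 35.1% of all genes tested were higher and 32.2% lower. Of 8 VEGF ligands and receptors, whose ligands share the cystine knot fold of PDGF, 2 rose, 3 fell and 3 did not pass the test (edgeR, median -0.10). Vegfa, the main endothelial growth factor, fell to 0.548-fold, and Kdr, its receptor gene, to 0.504-fold, whereas Pgf rose 2.19-fold and Vegfd 1.38-fold. Of 6 class III receptor relatives and their ligands, 4 rose, 1 fell and 1 did not pass the test (median 1.60). Il34 and Csf1, both ligands of the macrophage receptor encoded by Csf1r, rose 8.92-fold and 4.94-fold, and Kitl, the ligand of Kit, fell to 0.743-fold. The difference between the families was not tested.

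**Figure D4:**
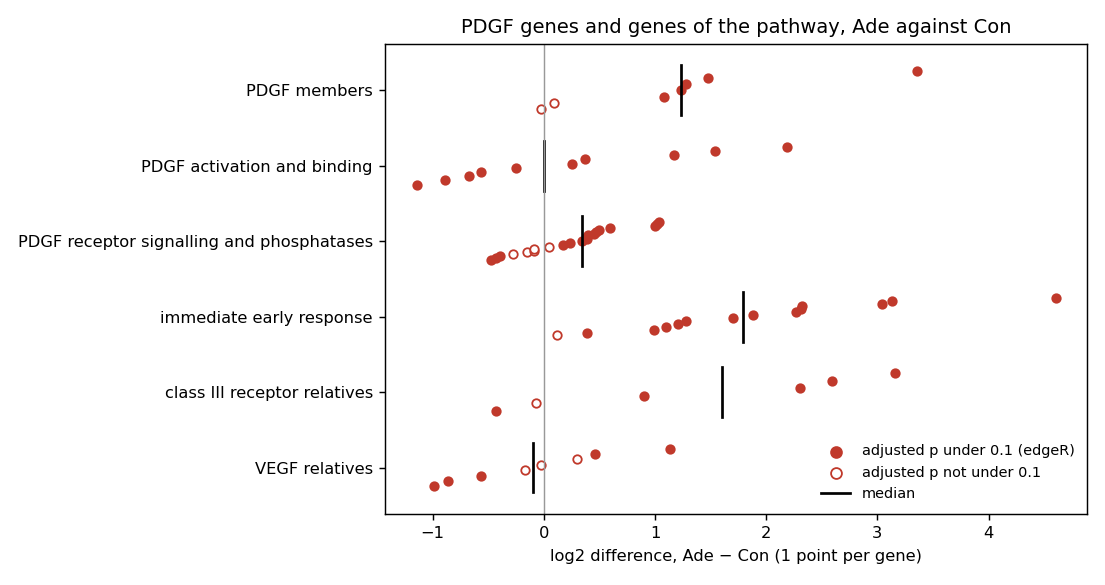
Log2 difference between Ade and Con (edgeR) of each gene of the PDGF family and of the 5 lists around it, with 1 point per gene, filled where the adjusted p was under 0.1, and a line at the median of the list. The medians were 1.23 for the PDGF family, 1.79 for immediate early genes and -0.10 for the VEGF relatives.

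Markers of cell types were counted in the same comparison, in which 35.1% of all genes tested were higher and 32.2% lower. All 10 fibroblast markers rose with adenine by edgeR, and their summed level went from 235 to 285 CPM in Con to 2370 to 3130 CPM in Ade and 1770 to 2730 CPM in Ade + IMC. Col1a1 and Col3a1, the chains of fibrillar collagen, rose 18.4-fold and 17.5-fold. All 9 macrophage markers rose, from a sum of 135 to 152 CPM in Con to 1350 to 2330 CPM in Ade, among them Lyz2 (24.9-fold) and C1qa (11.4-fold). Of 10 tested markers of pericytes, mesangial cells and smooth muscle 6 rose and 1 fell, with Acta2 at 2.002-fold and Rgs5 at 1.20-fold.

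Endothelial markers did not rise, as 0 of 10 were higher and 4 were lower, among them Plvap at 0.698-fold, while Eng was not called (0.984-fold). Of 3 tested platelet markers 1 rose and 1 fell. Pf4 rose 9.43-fold, Itga2b was not called (0.818-fold), and the 6 listed markers summed to 11.8 to 18.5 CPM in Con and 13.7 to 23.0 CPM in Ade. Of 6 podocyte markers 1 rose, Synpo (1.27-fold), and Podxl was not called (0.743-fold). All 6 markers of injured tubule rose, with Clu at 3.77-fold and Lcn2 at 124-fold.

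All 8 proximal tubule markers fell, with Slc34a1 at 0.302-fold and Lrp2 at 0.159-fold, and 6 of 7 markers of thick limb and collecting duct fell, with Slc12a1 at 0.481-fold. Umod was not called (0.793-fold). The part of these cell types in the PDGF differences was not tested.

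The PDGF genes were also set against the median log2 CPM of these marker lists in the same mouse, as a description. Against fibroblast markers, Pdgfa, Pdgfb, Pdgfra and Pdgfrb were lower in Ade than in Con by -0.91, -0.71, -0.93 and -1.09 on the log2 scale, and Pdgfc and Pdgfd by -2.21 and -2.08. Pdgfrl was the exception, at 0.79 higher, but this rested on the median of the list. The summed level of the fibroblast markers had a median of 237 CPM in Con and 2780 CPM in Ade. Pdgfrl had medians of 0.606 and 6.27 CPM, so it was not higher relative to that sum. Against markers of pericytes, mesangial cells and smooth muscle, the same 4 genes were higher by 0.81, 1.01, 0.80 and 0.64. Against endothelial markers, Pdgfb was 1.61 higher and Pdgfrl 3.12 higher.

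**Figure D5:**
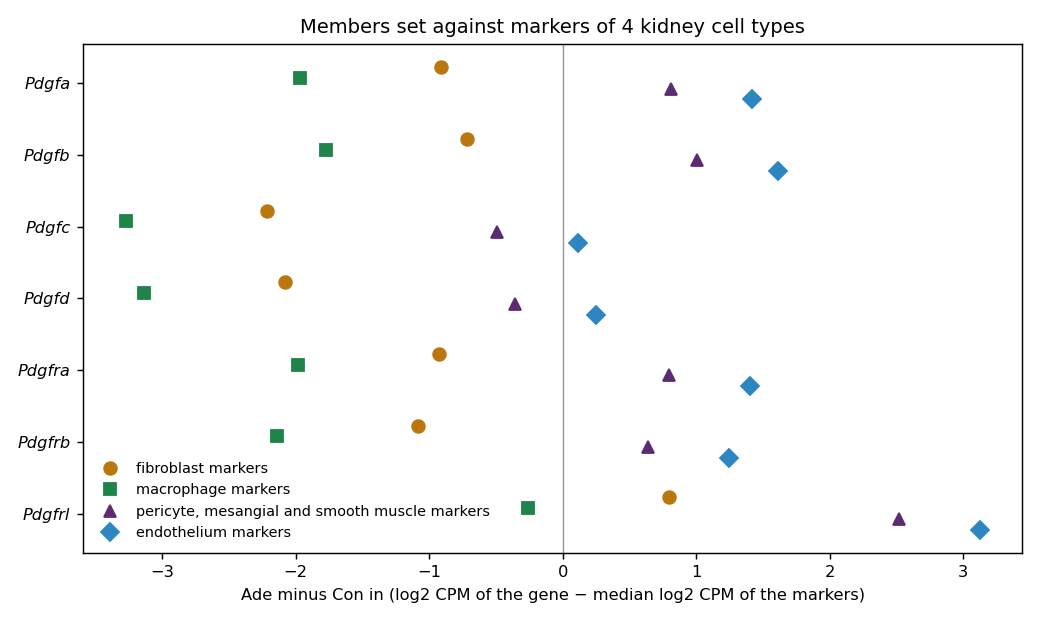
Difference between Ade and Con in the log2 CPM of each PDGF gene minus the median log2 CPM of a marker list, for markers of fibroblasts, macrophages, mural cells (pericyte, mesangial and smooth muscle) and endothelium. Pdgfrl is the single gene to the right of 0 for the median of the fibroblast markers, at 0.79, and all 7 genes are left of 0 for macrophage markers. The value for Pdgfrl depends on the use of the median.

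The pattern of each gene across the 17 mice, after the group means had been subtracted, was compared with that of 14153 genes, and the closest pair of each is given as a description. The points share their libraries, and no cell type was held constant. Pdgfa was most like Cldn4, a claudin of the distal nephron (Pearson's r = 0.925, Spearman's rho = 0.946), and Ankrd1 (r = 0.918, rho = 0.868). Pdgfb was most like Ppp1r13l (r = 0.946, rho = 0.951) and Eml2 (r = 0.936, rho = 0.902). Pdgfrb was most like the matrix gene Emilin1 (r = 0.916, rho = 0.841) and the collagen receptor gene Mrc2 (r = 0.885, rho = 0.838).

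For Pdgfra the closest genes were Clec14a, of endothelium (r = 0.930, rho = 0.899), and Tmtc1 (r = 0.916, rho = 0.899), both of which were lower in Ade (log2 differences of -0.41 and -0.87). For Pdgfrl they were the junction gene Jam2 (r = 0.933, rho = 0.846) and the endothelial receptor gene Robo4 (r = 0.920, rho = 0.919). Pdgfd was most like Thbs1, the thrombospondin gene (r = 0.929, rho = 0.907), and Rabgap1 (r = 0.907, rho = 0.772), and Pdgfc was most like Pm20d2 (r = 0.8999, rho = 0.819) and Shroom3 (r = 0.887, rho = 0.885). Without the 2 mice farthest from the median of the PDGF gene, r was between 0.763 and 0.953 for these 14 pairs. The pairs were picked for the highest r in the same mice, so these values do not test the pairing.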

How the data were processed

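Kidney RNA of 17 mice (5 Con, 6 Ade, 6 Ade + IMC), grouped by the sample labels, was analysed from gene tables. The authors sequenced single-end reads and deposited raw counts per gene for Con and Ade, and, for Ade and Ade + IMC, a signal, the count divided by DESeq2's size factor. The study's methods name STAR and mm10. The submitters' processing notes name Trimmomatic 0.39, FastQC 0.11.8, Bowtie2 2.2.5 and HTSeq 0.9.1, without roles. Which aligner of the 2 made these tables, the gene annotation and the strand setting are not given in the sources used here. A deposited table of the authors' own comparison (log2 fold change, p-value) was used for gene symbols alone.

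The deposited signal was a whole multiple of 1 read in 100% of values above 0 (tolerance 1e-06), and the reads so recovered differed from the raw counts in 0 of 123804 values of the Ade mice. Both tables list genes with at least 5 reads in total, and 20634 genes are in both. No pair of libraries agreed within counting noise.

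Ade and Con were compared by edgeR 4.0.16 (quasi-likelihood, TMM, its own filter on low counts), Ade + IMC and Ade on log2(normalized count + 1) by limma-trend (limma 3.58.1) for genes with a mean of at least 10, and Ade + IMC and Con by limma on log2 CPM (prior count 2), in R 4.3.3. A Benjamini-Hochberg adjusted p-value below 0.1 was a call, as in the study's methods. DESeq2 1.42.0, other scalings, filters and pseudocounts, blocks by the first digit of each mouse number, and the omission of each mouse were alternatives. The omission of mice 207, 211, 212 and 410, limma for Ade against Con, and edgeR with blocks for Ade + IMC against Ade were added after the data were seen. Labels do not say whether mice shared cages or litters. The tests were tested on simulated data.

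The members and the gene lists were chosen with earlier results of these data known. Beside the 7 PDGF genes, the text names from each pathway list up to 2 called genes in each direction with the smallest adjusted p-value. From each cell type list it names the 2 most abundant, and it names the 2 genes most like each member. Plat, Plau and St14 were added after their values were seen, for their role. Promoter windows are from RefSeq (GRCm38.p6), and gene positions are from GENCODE M21 (GRCm38).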

Additional observations from a re-analysis of the deposited data

Results flagged for a closer look

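Of 27 groups of values examined (the 7 genes, the receptor ratio and the library total in each of 3 groups), 1 held a mouse far from the others. The Ade library of mouse 308 had 5444833 reads, whereas the other Ade libraries had 7166746 to 7673215. Chance marks about 1 in 20 such groups. The values of the PDGF genes in this mouse were scaled for library size, and no PDGF level stood apart from its group in the same way.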

How the results depend on the processing

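The count of PDGF genes called was 5 for Ade against Con and 0 for Ade + IMC against Ade in the analysis and under every alternative run, which included the stricter threshold of 0.05, DESeq2, the block and the omission of any 1 mouse. It was 5 for Ade + IMC against Con under all alternatives except the omission of Con mouse 301 or of Ade + IMC mouse 410, which each gave 6, with Pdgfc lower (-0.32 and -0.29). Pdgfa, Pdgfb, Pdgfra, Pdgfrb and Pdgfrl kept their direction against Con in all of them. Values of genes that did not pass changed sign in some of them. With upper-quartile scaling Pdgfc was 0.032 in Ade against Con and Pdgfd was 0.053 in Ade + IMC against Con. Leaving out 1 mouse at a time, Pdgfc ranged from -0.15 to 0.073 and Pdgfd from -0.054 to 0.20 in Ade against Con, Pdgfd from -0.14 to 0.055 in Ade + IMC against Ade, and Pdgfd from -0.13 to 0.073 in Ade + IMC against Con. Without mice 207, 211, 212 and 410, Pdgfd was -0.054, 0.061 and 0.014 in the 3 comparisons in that order, and Pdgfrb was -0.054 in Ade + IMC against Ade. The difference in the log2 ratio of Pdgfra to Pdgfrb between Ade and Con ranged from -0.016 to 0.31 when 1 mouse was left out, and the negative value was that without Con replicate 5 (mouse 403). The cause was not tested. The numbers in the sample titles are not stated to pair mice of different groups, and replicates were numbered in accession order, so no pairing was analysed beyond the block by first digit. Depth limits Pdgfrl most, with 3 to 6 reads in each Con library.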
